A study of Mus musculus with 6 samples.

Results

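The keratins of the basal and suprabasal epidermis were read in the ear skin of 6 mice, on 1 one-colour array per mouse. They are 10 genes (Krt5, Krt14, Krt15, Krt1, Krt10, Krt2, Krt77, Krt78, Krt79 and Krt80), chosen by name, and 14 of the 39429 non-control probes on the array carry one of these names. The 3 wild-type (WT) mice, numbered 1, 2 and 3, are labelled NC16A sufficient, and the 3 knockout (KO) mice, numbered 1, 2 and 7, are labelled NC16A deficient. NC16A is a segment of BP180, which is collagen XVII, the hemidesmosomal collagen made by basal keratinocytes. The RNA is total RNA of fresh whole ear skin from mice of matched age and sex. How the segment was removed, the strain and the ages are not stated in the labels. The comparison of KO with WT asks which transcripts differ in skin without the segment, in a study whose title concerns spontaneous skin inflammation.

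Keratins form filaments from pairs of a type I and a type II protein. In the epidermis, basal cells make keratin 5 with keratin 14, and cells that leave the basal layer switch to keratin 1 with keratin 10. Keratin 2 replaces keratin 1 in the upper layers and is abundant in mouse ear skin, keratin 15 is a further type I keratin of basal cells and of the hair follicle bulge, and keratin 5 and keratin 14 are also made in the outer root sheath of the follicle.

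Krt5, Krt10, Krt2 and Krt78 had 2 probes each and the other 6 genes had 1, all of them 60 bases long and on the minus strand. Sequences are shown where the results turn on which probe was read. The Krt5 probe A_51_P186856 lies at chr15:101537514-101537573 of mm9 and holds the polyadenylation signal AATAAA, given in capitals in its last 30 bases. The Krt5 probe A_66_P116076 lies at chr15:101542056-101542115, 4482 bases further towards the 5′ end of the gene, and is shown whole.
Krt5 A_51_P186856, last 30 bases: tgacttcctccagagtctgtccAATAAAat
Krt5 A_66_P116076: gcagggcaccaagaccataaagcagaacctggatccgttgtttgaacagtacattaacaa
The Krt78 probes A_55_P2054563 (chr15:101776599-101776658) and A_52_P311168 (chr15:101776589-101776648) are offset by 10 bases and share 50, so they serve as a repeat reading of 1 stretch. Capitals mark the bases held by both of the stretches shown.
Krt78 A_55_P2054563, first 30 bases: tgccgcaccaTCCTGAAGAAGACAGTGGAA
Krt78 A_52_P311168, first 30 bases: TCCTGAAGAAGACAGTGGAAtcaagtcgga
The Krt1 probe A_51_P416669 (chr15:101676107-101676166) gave the largest difference between the groups.
Krt1 A_51_P416669, first 30 bases: agttttcatattagtagcagtctgagtccc

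None of the 14 keratin probes passed the test between KO and WT. The limma fit over 29601 probes called 2.11% of all probes at a Benjamini-Hochberg adjusted p under 0.05 (1.76% higher and 0.355% lower in KO), and 0 of 14 keratin probes, whose adjusted p lay between 0.087 and 0.97. At an unadjusted p under 0.05 there were 7 of the 14 (6 with the KO mean higher and 1 with it lower), against 26.9% of all probes (16.6% and 10.4%). The 3 KO values lay wholly above the 3 WT values for 7 keratin probes and wholly below for 2, against 20.8% and 14.9% of all probes, and the groups overlapped for 5. After quantile normalization, which gives every array the same distribution, 3 keratin probes lay wholly above and 2 wholly below, against 15.3% and 20.1% of all probes. Without scaling 1 lay wholly above and 4 wholly below, against 5.19% and 55.2%. The median difference was 0.27 over the keratin probes and 0.04 over all probes. The shares and the median over all probes are not matched for brightness, and those of the brightest probes, given below, were higher. A difference is the KO mean less the WT mean in log2 units, after each array's 75th percentile was set to 0, with the standard error of the fit (SE), from 3 mice per group. Each array is 1 mouse. The p-values of the fit set the group difference against the spread among mice of the same group, moderated by limma over all kept probes.

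Most keratin probes were among the brightest on the array, and this bears on every difference below. The KO arrays were dimmer before scaling, with a 75th percentile of 3813 to 4417 intensity units against 5288 to 6656 in WT. No keratin spot had a saturated pixel, and each of the 14 passed the background test on every array. The brightest keratin probes read near the top of the array, however. Krt5 (A_51_P186856) read 489496 to 560874 intensity units, where the highest spot of an array read 535958 to 602846. How signal responds near that maximum was not tested. Among the 100 brightest kept probes, which include Krt5 (A_51_P186856), Krt10 (A_55_P2070009) and Krt2 (A_51_P343474), the median scaled difference was 0.45 and 93% had all KO values above all WT values. For the next 400, which include Krt14, Krt15, Krt79 and the other Krt10 probe, the median was 0.35 and this share 73.25%. For ranks 501 to 1000, which include Krt1 and the dimmer Krt2 probe, they were 0.21 and 44.4%. From rank 2001 to 5000 they were 0.035 and 15.7%. Without scaling the medians of the first 3 of these classes were -0.035, -0.14 and -0.27, and after quantile normalization they were 0.012, 0.0043 and -0.014. The arrays of the 3 WT mice and KO 1 were on slide 1 and those of KO 2 and KO 7 on slide 2, so the difference of each keratin probe is also given within slide 1, where KO 1 alone is set against the WT mice. With slide as a fixed block, which called 0.652% of all probes, no keratin probe passed (lowest adjusted p = 0.77).

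**Figure D1:**
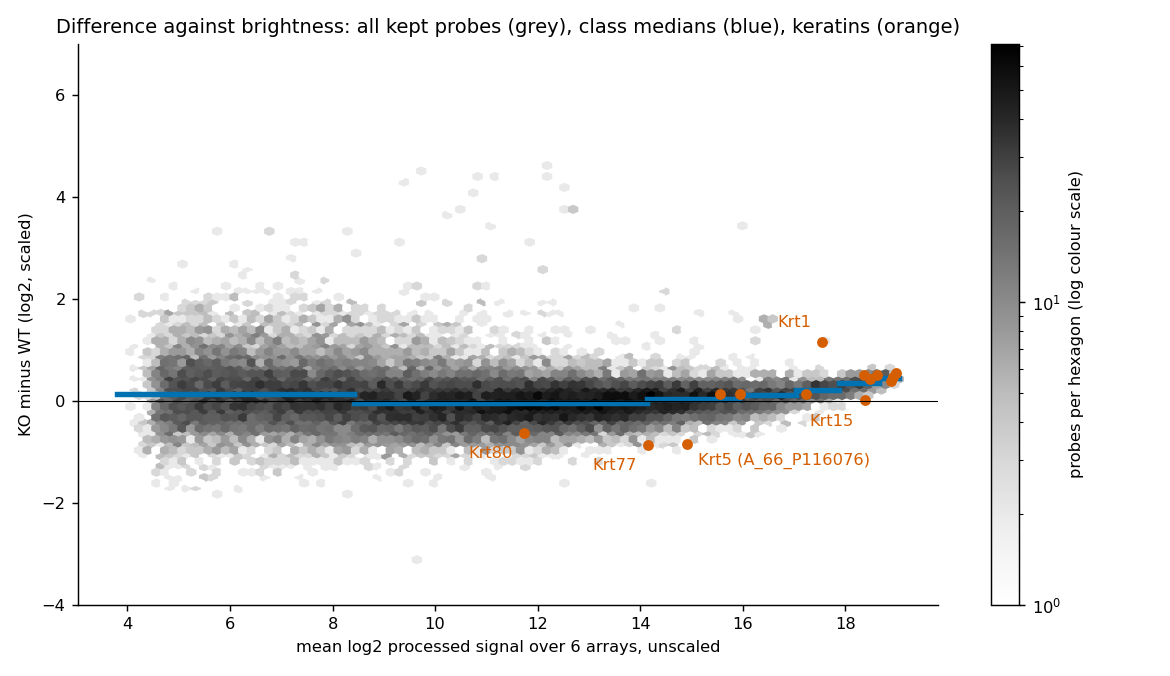
KO minus WT difference (log2, scaled; vertical axis) against the mean unscaled log2 signal over the 6 arrays (horizontal axis) for the 29601 kept probes, with darker grey for more probes on a log colour scale. Blue bars are the medians of 8 brightness classes and orange points the 14 keratin probes: the bars climb at the bright end, to 0.45 for the 100 brightest probes, Krt1 lies above its class, and Krt77, the 5′ Krt5 probe, Krt80 and Krt15 lie below theirs.

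Krt14, the type I keratin of basal cells, had a signal of 5.70, 5.81 and 6.07 in WT 1, 2 and 3 and of 6.26, 6.42 and 6.41 in KO 1, 2 and 7, in log2 units relative to the array's 75th percentile. The KO values lay above the WT values, and the WT mice spread over a wider range than the KO mice. The difference was 0.50 ± 0.15 (SE; 95% confidence interval 0.15 to 0.85, adjusted p = 0.11 in limma), or 0.39 within slide 1. After quantile normalization it was 0.15 and without scaling 0.0095, and in both the groups overlapped. Its probe (chr11:100064683-100065288, positions that span 606 bases for a 60-base probe) had brightness rank 235.

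Krt5, the type II partner of Krt14, was read differently by its 2 probes. At the 3′ probe A_51_P186856, brightness rank 6, WT gave 6.29, 6.54 and 6.54 and KO 6.79, 7.07 and 7.12. These KO values were all the higher ones, with a difference of 0.54 ± 0.15 (SE; interval 0.18 to 0.91, adjusted p = 0.11), or 0.34 within slide 1 and 0.085 after quantile normalization. Without scaling the difference was 0.052 and the groups overlapped. Of the 100 brightest probes, which include this one, 93% had all KO values above all WT values. At the 5′ probe A_66_P116076, rank 3468, WT gave 3.60, 2.90 and 2.74 and KO 2.69, 2.71 and 1.31. Here the KO values were all the lower ones, though KO 1 and KO 2 lay just under WT 3, and KO 7 lay far below the others. The difference was -0.84 ± 0.43 (SE; interval -1.85 to 0.18, adjusted p = 0.24), -0.38 within slide 1, and -0.37 without KO 7. It was -0.88 after quantile normalization and -1.33 without scaling.

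The log2 ratio of the 5′ over the 3′ Krt5 probe on the same array does not depend on the array's scale. It read -2.69, -3.64 and -3.80 for WT against -4.10, -4.36 and -5.81 for KO. The groups did not overlap, and the change was -1.38. An exact two-sided permutation test gave p = 0.1, the smallest that 3 against 3 mice can give. Adjusted over the 4 genes with 2 probes, the p of this test was 0.2. Ratios of 2 probes of a gene were added after their values were seen, so their p-values are descriptions only. The change was -0.72 within slide 1, -0.97 after quantile normalization and -0.85 without KO 7 (exact permutation p = 0.2). As a rough measure of RNA quality, the 5′ over 3′ ratio was also taken for 2989 other genes. Their probes lay at least 1000 bases apart on the genome, not along the transcript, and were not matched for brightness. Relative to the WT mean the median ratio read 0.069, -0.096 and 0.027 for WT against 0.032, 0.053 and 0.052 for KO 1, 2 and 7. The part of RNA quality in the Krt5 ratio was not tested.

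Krt15 had nearly the same scaled level in both groups. WT gave 6.04, 6.10 and 6.25 and KO 6.22, 6.21 and 5.97, and the groups overlapped. The difference was 0.0077 ± 0.14 (SE; interval -0.32 to 0.34, adjusted p = 0.97), an interval from 0.80-fold to 1.27-fold. Within slide 1 it was 0.092. Its probe (chr11:99993331-99993390, rank 226) was the exception among the brightest keratins: before scaling WT read 436985, 361641 and 419047 intensity units against 329150, 308808 and 239275 for KO, so the KO values were all lower. Without scaling 55.2% of all probes likewise had all KO values below all WT values. The Krt15 difference was -0.48 without scaling and -0.36 after quantile normalization, with adjusted p of 0.078 and 0.23 in limma. After quantile normalization the groups overlapped.

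**Figure D2:**
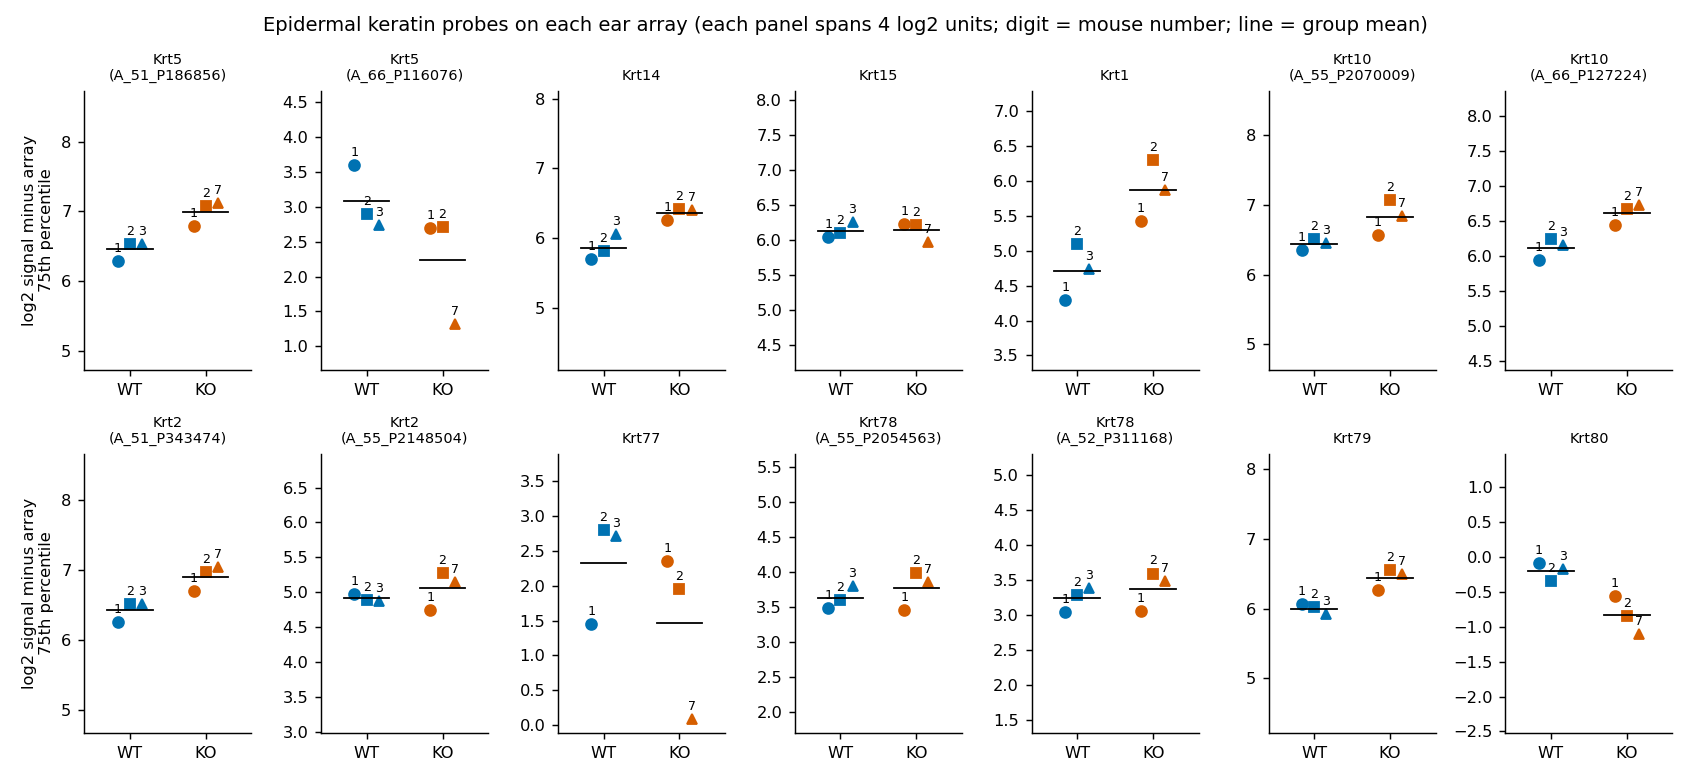
Signal of the 14 keratin probes on each array, as log2 signal minus the array's 75th percentile (vertical axis, 4 log2 units in every panel), for WT in blue and KO in orange; digits are mouse numbers and lines group means. Krt1 has the widest gap with all KO mice above all WT mice, and KO 7 is lowest for Krt77, Krt80 and the 5′ Krt5 probe. The Krt5 probes move in opposite directions under this scaling, while without scaling the groups overlap at the 3′ probe.

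Krt1, the type II keratin that marks the start of differentiation, showed the largest difference of the 14 probes. In scaled log2 units WT read 4.30, 5.09 and 4.74 against 5.42, 6.30 and 5.87 for KO, so each KO mouse lay above each WT mouse. In deposited intensity units the same spots read 130826, 179844 and 147538 for WT against 189346, 329086 and 223279 for KO. Krt1 was thus the 1 keratin probe whose KO values lay above WT without scaling. The difference was 1.16 ± 0.29 (SE; interval 0.47 to 1.84, 2.23-fold), and the adjusted p of 0.087 in limma missed the threshold. It was 0.71 within slide 1, 0.91 after quantile normalization and 0.67 without scaling. Its brightness rank on the array was 1301, 795 and 996 for WT against 612, 239 and 531 for KO, where rank 1 is the brightest probe.

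Krt10, the type I partner of Krt1, was read by 2 bright probes that gave similar differences. At A_55_P2070009 (chr11:99247846-99247905, rank 22) WT gave 6.35, 6.51 and 6.45 and KO 6.57, 7.06 and 6.84. At A_66_P127224 (rank 121), for which the array files place 21 bases at chr11:99246538-99246558, WT gave 5.94, 6.25 and 6.15 and KO 6.44, 6.67 and 6.73. At both probes the KO values lay above the WT values, with KO 1 the nearest to WT. The differences were 0.39 ± 0.16 (SE; interval -0.0017 to 0.78, adjusted p = 0.19) and 0.50 ± 0.15 (SE; interval 0.14 to 0.86, adjusted p = 0.12). Within slide 1 they were 0.13 and 0.33, and after quantile normalization -0.076 and 0.080. Without scaling they were -0.10 and 0.010, and the groups overlapped at both probes.

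Krt2, the type II keratin of the upper spinous and granular layers, had 1 very bright and 1 dimmer probe. At A_51_P343474 (chr15:101641326-101641385, rank 15) WT gave 6.26, 6.52 and 6.52 and KO 6.70, 6.98 and 7.05. The groups did not overlap, and the difference was 0.47 ± 0.16 (SE; interval 0.10 to 0.85, adjusted p = 0.13), or 0.26 within slide 1. After quantile normalization it was 0.012 and without scaling -0.015, and in both the groups overlapped. Of the 100 brightest probes, which include this one, 93% had all KO values above all WT values. At A_55_P2148504 (chr15:101642000-101642059, rank 883) WT gave 4.97, 4.90 and 4.88 and KO 4.74, 5.28 and 5.15. There KO 1 lay below all WT mice and KO 2 and KO 7 above them, with a difference of 0.14 ± 0.17 (SE; interval -0.27 to 0.55, adjusted p = 0.61), or -0.17 within slide 1. The ratio of the dimmer over the brighter probe on the same array changed by -0.33 between the groups, which did not overlap (exact permutation p = 0.1, adjusted p = 0.2). After quantile normalization it changed by -0.069 (exact permutation p = 0.6). This ratio was added after its values were seen, so its p-values are descriptions only.

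**Figure D3:**
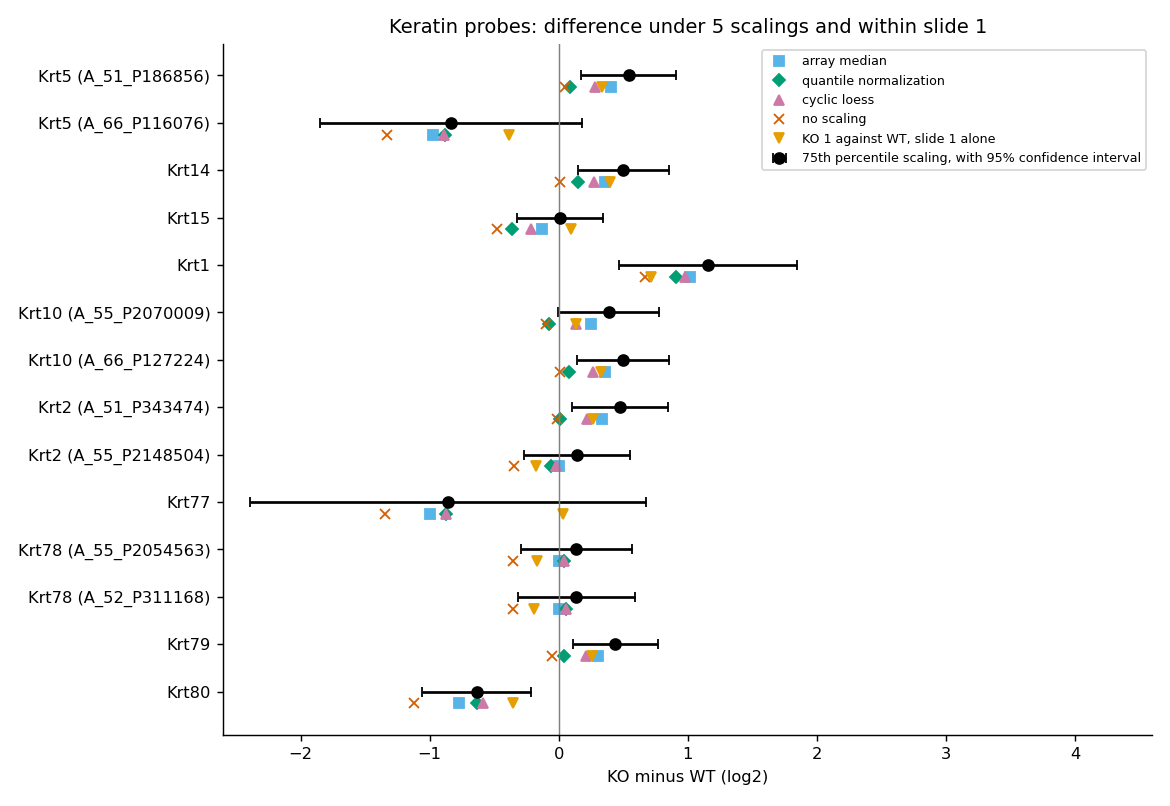
KO minus WT difference (log2, horizontal axis) of each keratin probe under the 75th percentile scaling with its 95% confidence interval (black) and, as coloured marks just below, under 4 other scalings and for KO 1 against the WT arrays of slide 1. Krt1 stays at 0.67 or above, Krt80 and the 5′ Krt5 probe stay below 0, and without scaling the 3′ Krt5 probe, Krt14, both Krt10 probes, the bright Krt2 probe and Krt79 lie between -0.10 and 0.052.

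Krt80, a type II keratin found at desmosomes and in later differentiation, was the dimmest of the 14 probes, at rank 11275 (A_55_P2145617, chr15:101180014-101180073). WT gave -0.083, -0.35 and -0.18 and KO -0.56, -0.85 and -1.10. All KO mice lay below all WT mice, and KO 7 was the lowest. The difference was -0.63 ± 0.18 (SE; interval -1.06 to -0.21, adjusted p = 0.10), or -0.36 within slide 1 and -0.63 after quantile normalization. Without scaling it was -1.12 and passed (adjusted p = 0.041), in a setting where 27.4% of all probes passed and 24.6% passed as lower.

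Krt77, a type II keratin of suprabasal cells and sweat gland ducts, varied most among mice of the same group (A_55_P2177290, chr15:101691358-101691417). WT gave 1.45, 2.80 and 2.71 and KO 2.36, 1.95 and 0.085, with a standard deviation of 0.75 in WT and 1.21 in KO (n = 3 each). WT 1 and KO 7 stood apart from the rest of their groups, which overlapped. The difference was -0.86 ± 0.64 (SE; interval -2.39 to 0.68, adjusted p = 0.40), 0.037 within slide 1, and -0.17 without KO 7.

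Krt78, a type II keratin of suprabasal epidermis, gave the same answer at both of its overlapping probes. At A_55_P2054563 WT gave 3.49, 3.61 and 3.80 and KO 3.46, 3.98 and 3.86, and at A_52_P311168 WT gave 3.04, 3.29 and 3.39 and KO 3.05, 3.59 and 3.49. KO 1 was at the level of the lowest WT mouse, and KO 2 and KO 7 lay above all WT mice. The differences were 0.14 ± 0.18 and 0.14 ± 0.19 (SE), with intervals from -0.29 to 0.57 and from -0.32 to 0.59 and adjusted p of 0.64 and 0.65, and they were -0.17 and -0.19 within slide 1. The ratio of the 2 probes varied with a standard deviation of 0.063 in WT and 0.023 in KO (n = 3 each), below the spread of either probe between mice.

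Krt79, a type II keratin of the hair follicle canal and sebaceous duct, was read by 1 bright probe (A_55_P1973930, chr15:101759764-101759823, rank 193). WT gave 6.06, 6.02 and 5.92 and KO 6.26, 6.56 and 6.50. The KO values lay above the WT values, with a difference of 0.44 ± 0.14 (SE; interval 0.11 to 0.77, adjusted p = 0.13). It was 0.26 within slide 1, 0.042 after quantile normalization and -0.051 without scaling. The groups overlapped after quantile normalization and without scaling.

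Ratios of 2 keratins on the same array were compared for 5 pairs, with the brightest probe of each gene. Their absolute value depends on the probes, so only the change between groups is read. Krt1 over Krt10 read -2.05, -1.42 and -1.71 for WT against -1.15, -0.76 and -0.97 for KO. Each KO mouse lay above each WT mouse, and the ratio changed by 0.77 (exact two-sided permutation p = 0.1, the smallest possible; adjusted p = 0.25 over the 5 pairs), or by 0.58 within slide 1. Krt15 over Krt14 read 0.34, 0.28 and 0.18 for WT against -0.035, -0.20 and -0.43 for KO. Here each KO mouse lay below each WT mouse, with a change of -0.49 (exact permutation p = 0.1, adjusted p = 0.25), or -0.30 within slide 1.

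For the other 3 pairs the groups overlapped. The partner ratio Krt5 over Krt14 changed by 0.042 (exact permutation p = 0.7) with the 3′ Krt5 probe, against a standard deviation of 0.13 in WT and 0.090 in KO (n = 3 each). With the mean of both Krt5 probes it changed by -0.65 (exact permutation p = 0.1), so the value turns on the probe. Krt2 over Krt10 changed by 0.086 (exact permutation p = 0.4), and by -0.14 with the mean of both probes of each gene (exact permutation p = 0.1). The suprabasal over basal ratio Krt10 over Krt14 changed by -0.11 (exact permutation p = 0.5).

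**Figure D4:**
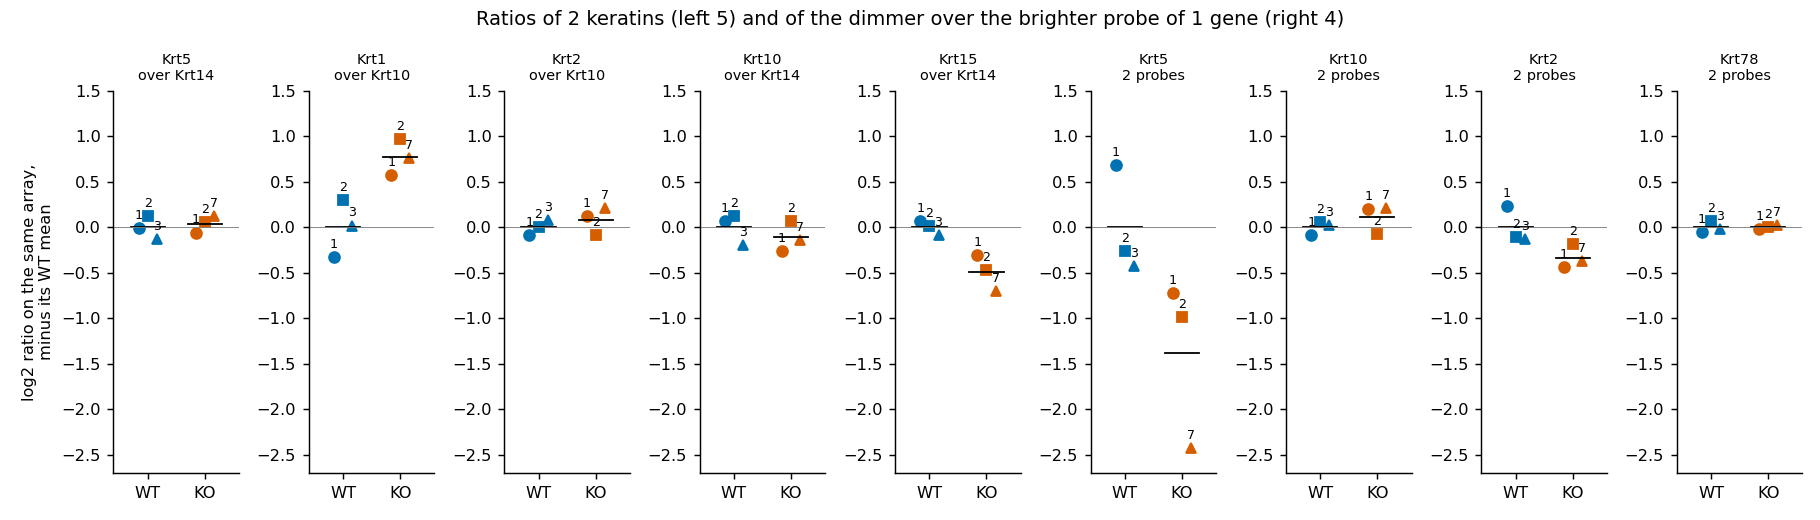
Log2 ratios on the same array, shown relative to the WT mean (vertical axis), for 5 pairs of keratins and for the dimmer over the brighter probe of the 4 genes with 2 probes; WT is blue, KO orange, digits are mouse numbers and lines group means. Krt1 over Krt10 lies higher in all 3 KO mice. Krt15 over Krt14 and the probe ratios of Krt5 and Krt2 lie lower in all 3, while the Krt78 probes keep a near constant ratio.

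The genes that work beside these keratins were taken from 4 lists, each gene by its brightest kept probe. Among all 23675 genes read this way 1.89% passed higher and 0.359% lower in KO, with a median of 0.054. Of 18 basal layer and hemidesmosome genes none passed, 9 had the higher mean in KO, and the median was 0.019 (0.075 within slide 1). The P-cadherin gene Cdh3 (0.96 ± 0.22 SE, adjusted p = 0.076) and Dst, which encodes the plakin that ties keratin filaments to hemidesmosomes (-0.46 ± 0.19, adjusted p = 0.18), had the smallest p, and Col17a1 gave -0.13 ± 0.14 (adjusted p = 0.58).

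Of 21 genes of spinous differentiation none passed, 13 had the higher mean in KO and the median was 0.10 (0.012 within slide 1). Notch1, whose receptor drives the basal to spinous switch, differed by 1.73 ± 0.54 (SE, adjusted p = 0.12), and Perp, a desmosomal membrane protein gene, by 0.43 ± 0.14 (adjusted p = 0.13). Of 20 granular layer genes none passed, 14 had the higher mean in KO and the median was 0.20 (0.053 within slide 1). The filaggrin family genes there went opposite ways in the mean, with Flg2 at -0.78 ± 0.19 (SE, adjusted p = 0.087) and Hrnr at 1.05 ± 0.28 (adjusted p = 0.095). Of 20 keratinocyte transcription factors none passed, 9 had the higher mean in KO and the median was -0.025 (-0.062 within slide 1). Barx2 was at 0.85 ± 0.22 (SE, adjusted p = 0.093) and Ovol1 at 0.59 ± 0.20 (adjusted p = 0.14).

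Other keratin genes on the array did pass. Of 41 measured, 21 rose in KO and none fell, against 1.89% and 0.359% of all genes. The median of the 41 was 2.34, and the other 20 did not pass. Most of the 21, among them Krt82, Krt35 and Krt73, are also on the hair matrix, sheath and shaft list below. The counts of these lists therefore share genes. Among the wound keratins Krt17 (1.04 ± 0.17 SE, adjusted p = 0.038) and Krt16 (2.74 ± 0.49, adjusted p = 0.048) rose, while Krt6a differed by 2.34 ± 0.50 (adjusted p = 0.067) and Krt6b by 3.45 ± 0.79 (adjusted p = 0.076). The simple epithelial keratins Krt7, Krt8, Krt18, Krt19 and Krt20 had a median of -0.37, and none passed, with Krt20 at -1.21 ± 0.24 (adjusted p = 0.057) and Krt18 at 1.08 ± 0.30 (adjusted p = 0.11).

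Markers of the other cells of ear skin passed the test in some lists and not in others, and in bulk tissue fewer cells of a type and less RNA per cell cannot be told apart. Of 23 measured markers of the hair matrix, sheath and shaft, 16 rose and none fell, against 1.89% and 0.359% of all genes. Their mean level was -1.08 to -0.43 in the WT mice and 1.23 to 1.90 in the KO mice. Krt82 (3.21 ± 0.20 SE), Krt73 (3.11 ± 0.22) and Krt35 had the smallest p (adjusted p = 0.0019 each). Of 12 resting follicle and bulge markers none passed, and their mean level was 0.75 to 0.82 in WT and 0.90 to 0.99 in KO, with Lgr5 at 0.46 ± 0.15 (adjusted p = 0.13) and Postn at 0.53 ± 0.17 (adjusted p = 0.13). Of 16 general epithelial genes none passed, with a median of 0.12 (-0.045 within slide 1). Their mean levels were 0.30 to 0.54 in WT and 0.54 to 0.69 in KO. Elf3 (1.93 ± 0.49, adjusted p = 0.090) and the claudin gene Cldn1 (-1.05 ± 0.30, adjusted p = 0.11) had the smallest p.

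The next lists are also read beside the 1.89% of all genes that passed higher and the 0.359% lower. Of 12 sebaceous gland markers the fatty acid elongase gene Elovl3 rose (1.56 ± 0.17 SE, adjusted p = 0.0086), and Awat2 gave -1.49 ± 0.32 (adjusted p = 0.067). In this list 5 of the 12 means were higher in KO, and the median was -0.10. Of 12 fibroblast markers the dermatopontin gene Dpt fell (-1.18 ± 0.20, adjusted p = 0.040), and Fbn1 gave -0.96 ± 0.19 (adjusted p = 0.058), while 7 of the 12 means were higher in KO and the median was 0.29 (-0.12 within slide 1). Of 18 leukocyte markers S100a8 and S100a9, which stressed keratinocytes also make, rose by 4.72 ± 0.35 and 4.69 ± 0.29 (adjusted p = 0.0022 and 0.0019). The other 16 did not pass, 11 of the 18 means were higher in KO, and the list's median was 0.18 (-0.12 within slide 1). None of the 13 muscle, 12 adipocyte and 11 measured cartilage markers passed, and their medians were -0.54, -0.84 and -0.61 (-0.22, -0.35 and -0.38 within slide 1). The mean level of the muscle list lay between 3.45 and 4.49 for WT against 2.86 to 3.89 for KO, with Myh1 at -0.54 ± 0.16 (adjusted p = 0.12) and Mb at -0.65 ± 0.21 (adjusted p = 0.13). That of the adipocyte list lay between 2.07 and 3.26 against 1.72 to 2.44, with Adipoq at -1.31 ± 0.38 and Lep at -1.50 ± 0.44 (adjusted p = 0.11 each). That of the cartilage list lay between -0.13 and 0.029 against -0.70 to -0.37, with Comp at -0.62 ± 0.14 (adjusted p = 0.074) and Col9a1 at -1.12 ± 0.26 (adjusted p = 0.076). The part that shifts in the makeup of the tissue play in the keratin values was not tested.

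**Figure D5:**
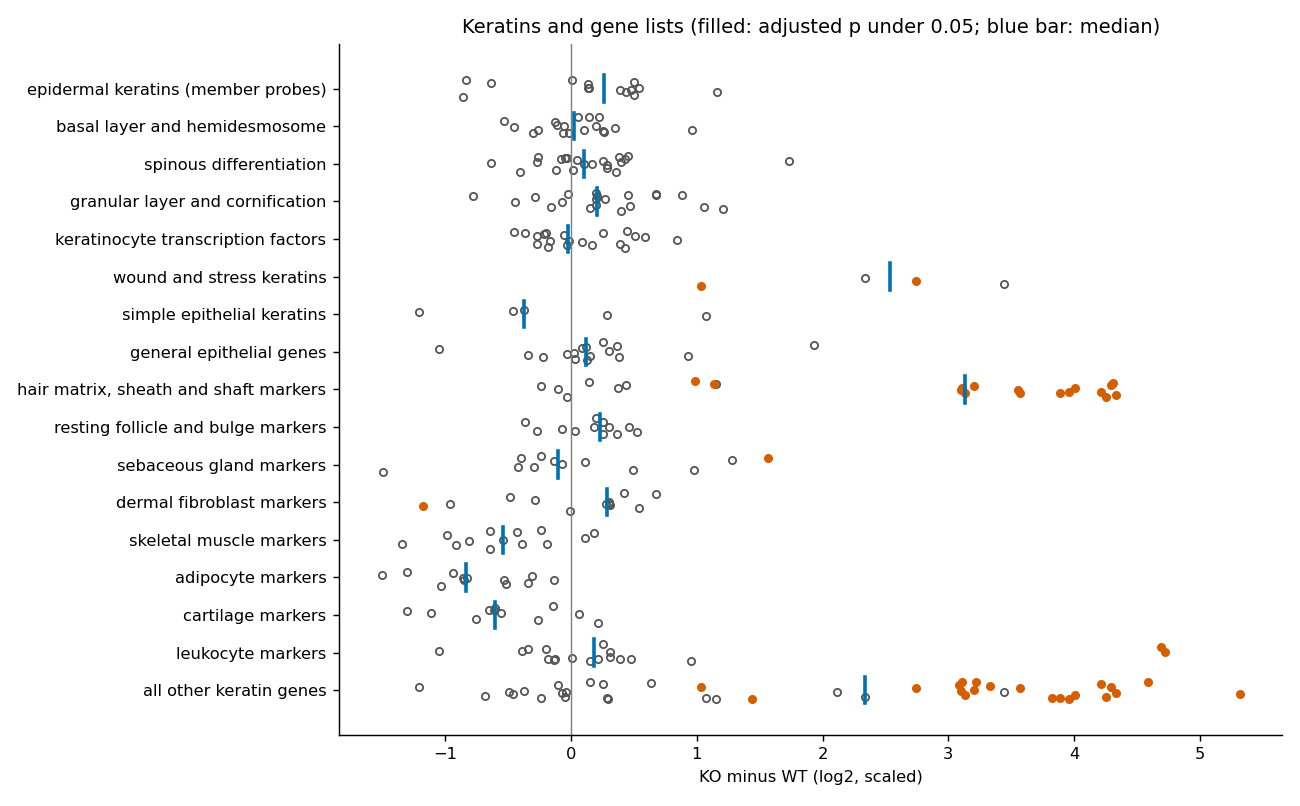
KO minus WT difference (log2, scaled; horizontal axis) of the 14 epidermal keratin probes and of the genes of each list, 1 point per probe or gene, filled orange where the adjusted p was under 0.05, with the list's median as a blue bar. The epidermal keratins have no filled point and a median of 0.27, while the lists of other keratins and of hair markers, which share genes, reach beyond 4.

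The genes whose values over the 6 arrays lay closest to those of Krt14, by the root mean square distance of centred log2 values, were Cachd1 (0.042), Rprd1b (0.049) and the stratifin gene Sfn (0.050), among 8580 genes above the 75th percentile on average. For Krt10 they were Azin1 (0.041), Rbm4 (0.043) and an unnamed transcript (0.049). These distances are descriptions over 6 arrays, and 5 of the 6 likest transcripts were read by probes of brightness rank 5218 or dimmer.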

How the data were processed

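Total RNA of 6 ear skins was hybridised to one-colour Agilent arrays. The deposited scanner files give processed signal as an intensity, background-subtracted and corrected for spatial trends within the array by Agilent Feature Extraction 10.7.3.1 (design 026655, probe positions on mm9) and not normalized across the 6 arrays, per the file headers. Values of the series matrix, also deposited, equalled them on each array. Outlier and control spots were left out and spots of a probe averaged, which left 39389 probes. Values are log2 signal minus the array's 75th percentile, and 29601 probes were kept, each detected well over background in 3 or more of the 6 mice. Flags for background, outliers and saturation are other values set by the scanner software, per the file headers. The groups were compared two-sided with limma 3.58.1 under R 4.3.3 (lmFit, eBayes), without covariates, and p-values were adjusted by Benjamini-Hochberg over every kept probe (4 residual and 2.75 prior degrees of freedom). The fit was tested on simulated data. The number of arrays limits the precision. Member genes were matched by the gene name in the scanner files. Genes of the lists were named through a RefSeq table (GRCm38.p6, names only). No gene annotation of mm9 was used, so whether a probe lies in coding or untranslated sequence is not given.

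Every keratin probe was named. For each list the text names up to 3 passing genes of smallest p, or the 2 of smallest p if 0 or 1 passed, and Col17a1. Krt6a, Krt6b and the ratios of 2 probes of a gene were added after their values were seen. The members, lists and tests were chosen with earlier results of these data known. Alternatives were normexp background (offset 50), quantile normalization, the array median, the 75th percentile taken only over probes detected on all 6 arrays, no filter, a filter on all 6 arrays, slide as a fixed or random block, slide 1 alone, the replicate number as a block, the series matrix, gene-level fits, and each mouse left out. Values without scaling and cyclic loess normalization were added after the data were seen. Tables and plots used Python 3.11.15 (numpy 2.4.6, pandas 2.3.3, matplotlib 3.10.9).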

Additional observations from a re-analysis of the deposited data

How the results depend on the processing

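With 3 arrays per group the precision is limited by their number. Every keratin probe was well above background, but the brightest read near the array's maximum, where the response was not tested. The number of keratin probes past the threshold was 0 under each alternative run except without scaling, where it was 1 (Krt80). Krt1, Krt14, Krt80, the Krt10 probe A_66_P127224 and the 5′ Krt5 probe kept their direction under each alternative. For Krt14 and this Krt10 probe that includes values of almost no difference, 0.0095 and 0.010, both without scaling. Krt1 ranged from 0.67 to 1.38, with a lowest adjusted p of 0.055 (without KO 1).

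The scaling and the slide turned the sign of differences that did not pass, among them Krt77, whose -0.86 was the largest of those turned. Without scaling Krt15 was at -0.48, the Krt10 probe A_55_P2070009 at -0.10, the Krt2 probes at -0.015 and -0.35, both Krt78 probes at -0.35 and Krt79 at -0.051. After quantile normalization Krt15 was at -0.36, Krt10 (A_55_P2070009) at -0.076 and Krt2 (A_55_P2148504) at -0.057. With cyclic loess Krt15 was at -0.22 and Krt2 (A_55_P2148504) at -0.019. With the array median Krt15 was at -0.13 and the Krt78 probes at -0.00018 and -0.00053, and with normexp background Krt15 was at -0.078. Within slide 1, and equally with slide as a fixed block, Krt2 (A_55_P2148504) was at -0.17, Krt77 at 0.037 and the Krt78 probes at -0.17 and -0.19. The mean of both Krt5 probes gave -0.15. Without 1 mouse Krt15 ranged from -0.038 to 0.088. With the replicate block Krt77 was at 0.025. The ratio Krt5 over Krt14 turned to -0.065 (quantile), -0.057 (slide 1), -0.060 (replicate block) and -0.65 (mean of probes), and ranged from -0.021 to 0.11 without 1 mouse, and Krt2 over Krt10 turned to -0.14 (mean of probes). The near-zero Krt78 probe ratio turned to 0.064 (normexp), 0.011 (quantile) and 0.017 (cyclic loess), and ranged from -0.027 to 0.034 without 1 mouse. For these the cause was not tested beyond the brightness classes given above.

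Over all probes 521 were called higher and 105 lower, 369 and 135 after quantile normalization and 435 and 172 with the array median. The counts were 996 higher with normexp background, 305 and 30 with no filter, 183 and 10 with slide as a fixed block, 181 and 8 within slide 1, 820 and 7291 without scaling, and without 1 mouse they ranged from 207 to 892 and from 18 to 325. With the replicate block, from 2 shared numbers, 0 and 0 were called. Of the genes on the 4 partner lists 0 passed, but 1 was higher with normexp background, 14 were lower without scaling, and without KO 1 there were 2 higher and 1 lower (ranges 0 to 2 and 0 to 1 over the mice left out). The labels do not say that mice of one number belong together: deviations of WT 1 and KO 1 correlated at 0.10 and those of WT 2 and KO 2 at 0.052, over probes. The replicate block put no keratin probe past the threshold.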
